A study of Mus musculus with 21 samples.

Results

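The epidermal growth factor (EGF) family and its ERBB receptors were examined in kidney RNA through 10 genes, which were found by gene symbol among the 20634 genes listed in both deposited expression tables. They comprised 7 ligands (Egf, Tgfa, Hbegf, Areg, Ereg, Btc and Nrg1) and 3 receptors (Egfr, Erbb2 and Erbb3). All mice were female apoE knockout animals on the C57BL/6J background, controls included, so that all 3 groups carried this deletion and differed in diet. Feeding began at 4 weeks of age and lasted 14 weeks, and kidneys were taken at 18 weeks. The Con group (n = 5) received chow, the Ade group (n = 6) chow with adenine, which damages the tubules and brings on chronic kidney disease, and the Ade + IMC group (n = 6) chow with adenine and iodomethylcholine (IMC), an inhibitor of the bacterial enzyme that makes trimethylamine. The comparison of the Ade and Con groups asked what adenine feeding changed, and that of adenine with and without IMC what IMC changed on top of it. The labels list 21 mice, and 4 of them, fed chow with IMC alone, were not analysed here. RNA came from whole kidney, in which fewer cells of a type and less RNA per cell cannot be told apart.

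The ligands are made as precursors in the cell membrane and are cut free by proteases, chiefly of the ADAM family. EGF, TGF-alpha and amphiregulin bind EGFR, heparin-binding EGF, betacellulin and epiregulin bind both EGFR and ERBB4, and neuregulins bind ERBB3 and ERBB4. ERBB2 has no known ligand and acts as the preferred partner of the other receptors, while ERBB3 has little kinase activity of its own. In healthy kidney, Egf is made mainly by the distal convoluted tubule and the thick ascending limb, and its loss from urine is a known sign of tubular disease.

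Adenine feeding was accompanied by a fall of the ligand that dominated the control kidney and a rise of a ligand that was scarce in it. Egf fell 4.57-fold in the Ade group (log2 fold change -2.19 ± 0.46, SE), or 8.43-fold once the leading digit of each mouse number entered as a block, and from 2.05-fold to 15.9-fold within single digits. Hbegf rose 2.2-fold (1.14 ± 0.25). Btc fell 2.32-fold, the 3 receptors fell 1.24-fold to 1.64-fold, and Areg, with 0 reads in every Con mouse, was read in every Ade mouse. The call of Egfr was lost under 5 of 20 alternative settings. Of all genes tested, 35.1% rose and 32.2% fell in the Ade group. With IMC, limma called 0 of all 14696 genes tested against the Ade group, and so 0 of the 8 tested genes of the family. Egf was then 2.04-fold higher and Nrg1 1.61-fold lower, neither beyond the correction for all genes tested, although both were called by DESeq2 with that block (adjusted p = 0.0302 and 0.0628). With the same block, limma (0.126 and 0.164) and edgeR (0.156 and 0.170) called neither.

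Totals ran from 7716126 to 11680809 counts per mouse in the Con group, 5444833 to 7673215 in the Ade group and 5728589 to 8305968 in the Ade + IMC group. Levels of single mice are given as CPM (the count scaled to the library total) on library sizes scaled by TMM over the 17 mice, and levels of different genes are compared as CPM per kilobase of exon. Differences between groups are log2 fold changes with their SE. The Ade and Ade + IMC groups were each compared with the Con group by edgeR's quasi-likelihood test, and with each other by limma on log2(normalized count + 1). A gene was called at a Benjamini-Hochberg adjusted p below 0.1 over all genes tested. Havcr1, the tubular injury gene used to check the labels, had 1 to 7 reads in Con mice, 549 to 2104 in Ade mice and 192 to 1580 in Ade + IMC mice. Among the Ade mice, mouse 407 stood apart, with 520 CPM summed over 7 injured tubule markers (others 871 to 1619). Among the Ade + IMC mice, mouse 311 had 372 CPM summed over 6 T and B cell markers (others 45.2 to 105). The first digit of the mouse number (2, 3 or 4), whose meaning the labels do not give, separated the Ade mice in several of these genes. Differences from the Con group within each digit are therefore given for the tested genes. Tgfa and Erbb2, whose values are not broken down further, were lower in the Ade group within each of the 3 digits (1.15-fold to 1.42-fold and 1.17-fold to 1.62-fold).

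Promoters of 6 of the 10 genes were searched, from the RefSeq table (GRCm38.p6), each covering 250 bases before to 50 bases after a start site. Hbegf was left out of this search. Those of Egf, Btc and Areg are shown, the first 2 because these were the ligands that fell most and the third because its reads appeared with adenine. Egf lies on the minus strand of chromosome 3 (GRCm38, 129677565 to 129755316) and 2 promoters of it are in the table, of which the one at the start of the annotated gene, chr3:129755273-129755572, is shown. Btc lies on the minus strand of chromosome 5 (91357261 to 91402994), with its promoter at chr5:91402945-91403244. Areg lies on the plus strand of chromosome 5 (91139599 to 91148432), with its promoter at chr5:91139349-91139648. Capitals mark matches on either strand to a TATA box (TATAAA), a GC box (GGGCGG), an AP-1 site (TGANTCA) and a cyclic AMP response element (TGACGTCA).
Egf: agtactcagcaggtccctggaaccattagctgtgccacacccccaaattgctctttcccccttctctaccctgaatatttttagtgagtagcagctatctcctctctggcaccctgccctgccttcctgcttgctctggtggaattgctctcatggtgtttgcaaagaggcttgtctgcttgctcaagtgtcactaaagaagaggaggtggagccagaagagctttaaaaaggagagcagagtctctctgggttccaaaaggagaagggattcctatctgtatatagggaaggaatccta
Btc: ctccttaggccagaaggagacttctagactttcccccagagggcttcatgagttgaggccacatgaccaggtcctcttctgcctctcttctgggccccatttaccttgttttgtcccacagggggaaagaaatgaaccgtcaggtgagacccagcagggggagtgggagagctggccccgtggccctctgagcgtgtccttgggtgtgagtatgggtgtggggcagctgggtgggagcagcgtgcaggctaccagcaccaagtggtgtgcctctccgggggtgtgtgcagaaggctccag
Areg: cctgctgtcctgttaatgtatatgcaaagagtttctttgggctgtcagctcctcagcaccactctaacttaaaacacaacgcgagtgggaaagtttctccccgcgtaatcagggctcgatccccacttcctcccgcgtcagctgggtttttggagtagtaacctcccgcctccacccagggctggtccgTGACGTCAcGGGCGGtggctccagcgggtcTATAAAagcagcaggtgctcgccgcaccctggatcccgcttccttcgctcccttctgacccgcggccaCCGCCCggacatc

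The Areg window held a TATA box from base -31 to -26 of the start site, a cyclic AMP response element from -61 to -54, a GC box from -52 to -47 and a second GC box, on the other strand, from 37 to 42. Neither the Egf nor the Btc window shown held any of these letter strings. Of the windows not shown, that of Tgfa, a ligand that also fell, held 2 GC boxes, that of Egfr 1 and that of Erbb2 none of the letter strings, so that the windows of the genes that fell differed in this. Among all 32851 promoters of the table, 13.6% held the TATA box, 35.7% the GC box, 7.81% the AP-1 site and 1.79% the cyclic AMP response element. The GC content was 49% for the Egf window shown, 60.3% for Btc and 59.3% for Areg, against a median of 52.7% for all promoters. The Egf window shown had 0 CG pairs, that of Btc 5 and that of Areg 21. The other Egf window (chr3:129725037-129725336), which lies within the gene, had a GC content of 52.3% and 17 CG pairs, and also held none of these letter strings. A match of letters is a description of these windows and not a measured binding site.

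Egf, the founding ligand of the family, had the highest level per kilobase of the 10 genes in every group. In Con mice 201, 202, 301, 302 and 403 it stood at 4512, 3379, 2710, 3492 and 2315 CPM. In Ade mice it ran from 238 to 1454 CPM with a median of 587, and in Ade + IMC mice from 846 to 1575 CPM with a median of 1095. Every adenine-fed mouse, with or without IMC, thus lay below every Con mouse. Group means with their SD were 3282 ± 841 CPM for Con (n = 5), 708 ± 520 CPM for Ade (n = 6) and 1150 ± 279 CPM for Ade + IMC (n = 6). By edgeR, Egf fell in the Ade group (adjusted p = 0.000949) and in the Ade + IMC group, there by 1.54 ± 0.20 on the log2 scale (2.91-fold lower, adjusted p = 3.08e-05). Of the exon bases of Egf, 1107 of 11275 are shared with antisense genes, whose reads cannot be told apart from those of Egf because the use of strand in counting is not stated.

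**Figure D1:**
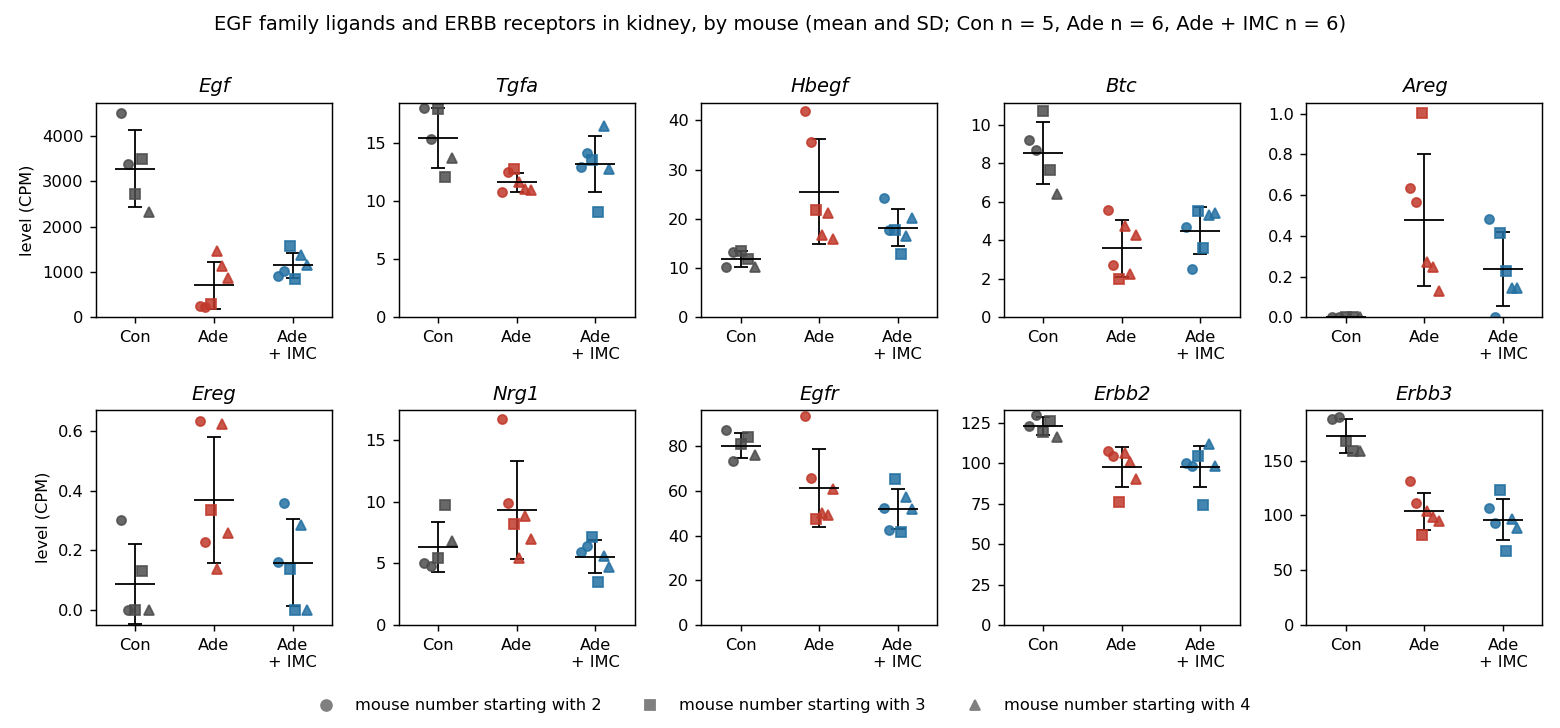
CPM of each of the 10 genes in each mouse, on a linear axis for each gene, with bars at the mean and SD (Con n = 5, Ade n = 6, Ade + IMC n = 6) and marker shapes for the first digit of the mouse number. Egf and Btc of all Ade mice lie below, and Hbegf above, all Con mice, and Egf of the Ade mice lies at 238 to 302 CPM for digits 2 and 3 and at 872 to 1454 CPM for digit 4.

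Within the Ade group Egf fell into separate ranges. The 3 mice with first digit 2 or 3 had 238, 254 and 302 CPM, and the 3 mice with first digit 4 had 872, 1129 and 1454 CPM. Set against Con mice of the same digit, Egf of the Ade group was 15.9-fold lower for digit 2 (2 mice against 2), 10.2-fold lower for digit 3 (1 against 2) and 2.05-fold lower for digit 4 (3 against 1). The direction was the same within each digit, and whether the size differs between digits was not tested. With the digit as a block in edgeR's fit, the fall was 8.43-fold (log2 fold change -3.08 ± 0.45, adjusted p = 8.97e-05).

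Of 11 markers of the tubule segments that make Egf, 7 fell in the Ade group, where 32.2% of all genes tested fell. Of the 5 thick ascending limb markers among them, 3 fell and 1 (Cldn16) rose. Slc12a1, the salt transporter of that segment, fell by 1.06 on the log2 scale, and Umod, which encodes uromodulin, had a log2 fold change of -0.33 (adjusted p = 0.181). Of the 6 distal convoluted tubule markers, 4 fell and 0 rose, Slc12a3, the thiazide-sensitive transporter, by 1.02. The summed level of the distal convoluted tubule markers was 1971 to 2940 CPM in Con, 959 to 2050 CPM in Ade and 946 to 2080 CPM in Ade + IMC mice. Within the Ade group it was 959, 1052 and 1216 CPM in the 3 mice with low Egf and 1439, 1574 and 2050 CPM in the other 3. The summed level of the thick ascending limb markers was 5418 to 9854 CPM in Con, 2813 to 6561 CPM in Ade and 5549 to 8570 CPM in Ade + IMC mice. None of these 11 markers was at 0 in a whole group, and their part in the fall of Egf was not tested.

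Hbegf, whose product is known to be made by injured tubule cells, moved the other way. In Con mice 201, 202, 301, 302 and 403 it stood at 10.3, 13.3, 13.5, 11.9 and 10.2 CPM. It ran from 16.0 to 41.9 CPM in Ade mice (median 21.5) and from 12.9 to 24.2 CPM in Ade + IMC mice (median 17.8). All 6 Ade mice, and 5 of the 6 Ade + IMC mice, lay above every Con mouse. The rise passed edgeR's test in the Ade group (adjusted p = 0.00137) and in the Ade + IMC group (log2 fold change 0.59 ± 0.15, 1.51-fold, adjusted p = 0.00507). The highest values, 35.7 and 41.9 CPM, came from the Ade mice with first digit 2, and the rise within digits was 3.26-fold for digit 2, 1.69-fold for digit 3 and 1.73-fold for digit 4.

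The ratio of these ligands was also taken in each mouse. Per kilobase, Egf exceeded Hbegf by 85.8-fold to 188-fold in Con mice, by 2.59-fold to 37.5-fold in Ade mice and by 16.3-fold to 37.9-fold in Ade + IMC mice. The Ade mice with first digit 2 or 3 had ratios of 2.59, 2.86 and 5.97, and those with first digit 4 had 22.8, 23.4 and 37.5. All Con mice thus lay above all adenine-fed mice, and the Ade mice with digit 4 lay within the range of the Ade + IMC mice.

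**Figure D2:**
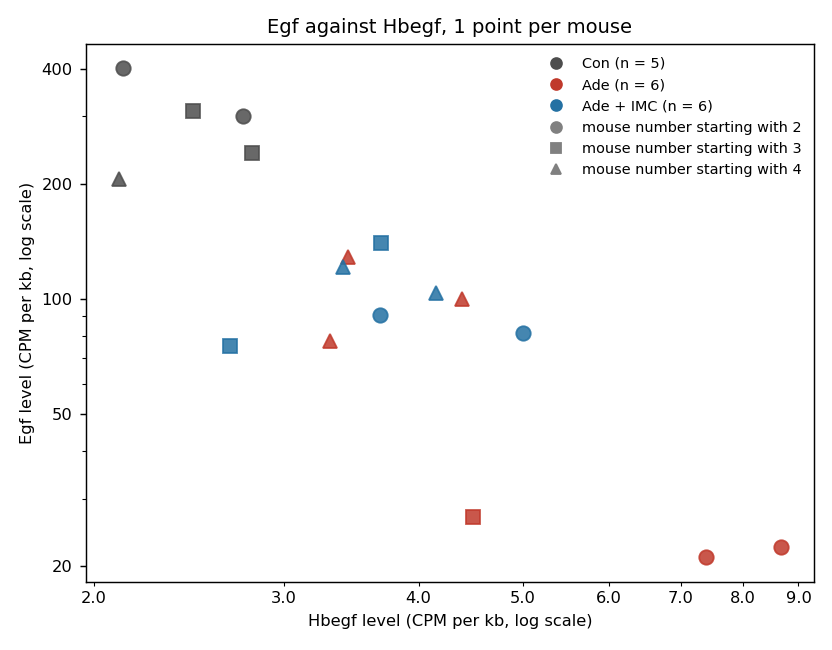
Egf level against Hbegf level in CPM per kilobase, both on log axes, with 1 point per mouse, colours for the 3 groups and marker shapes for the first digit of the mouse number. Con mice sit at the upper left and Ade mice 207 and 208 at the lower right. Ade mouse 308 lies as low in Egf but within the Hbegf range of the Ade + IMC mice, and the other Ade mice lie among the Ade + IMC mice.

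Btc encodes betacellulin, and its level fell to 43.1% of that in the Con group with adenine. It was 9.18, 8.66, 10.7, 7.66 and 6.4 CPM in Con mice 201, 202, 301, 302 and 403, 2.0 to 5.59 CPM in Ade mice (median 3.49) and 2.51 to 5.53 CPM in Ade + IMC mice (median 4.99). The ranges of both adenine-fed groups lay below that of the Con group. By edgeR, the fall was 1.21 ± 0.25 on the log2 scale in the Ade group (adjusted p = 0.00092) and 0.95 ± 0.21 in the Ade + IMC group (adjusted p = 0.00169). Btc was lower in the Ade group within each digit, 2.2-fold for digit 2, 4.11-fold for digit 3 and 1.74-fold for digit 4. These values rest on 12 to 91 reads per mouse.

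Tgfa, which encodes transforming growth factor alpha (chromosome 6, 86195223 to 86275719, plus strand), changed less. It was 18.0, 15.3, 17.9, 12.1 and 13.7 CPM in Con mice 201, 202, 301, 302 and 403, 10.8 to 12.7 CPM in Ade mice (median 11.3) and 9.07 to 16.5 CPM in Ade + IMC mice (median 13.2). The Con and Ade ranges overlapped, with 4 of 6 Ade mice below every Con mouse. It fell in the Ade group (log2 fold change -0.39 ± 0.12, adjusted p = 0.0143, edgeR) and had a log2 fold change of -0.26 ± 0.15 in the Ade + IMC group (adjusted p = 0.157). That last comparison passed the threshold without Con mouse 302 (adjusted p = 0.0812) or without Ade + IMC mouse 410 (adjusted p = 0.0892).

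Areg and Ereg, which encode amphiregulin and epiregulin and lie in 1 cluster with Btc on chromosome 5 (Ereg at 91074622 to 91093646, plus strand), were at the limit of detection and were not tested after the filter on low counts. Areg had 0 reads in each of the 5 Con mice, which over their 45690929 counts allows a level of up to 0.0657 CPM. It had 1 to 6 reads in each of the 6 Ade mice (21 reads in all) and 0 to 3 reads in Ade + IMC mice (10 reads in all, in 5 of 6 mice). Areg had 5, 5 and 6 reads in Ade mice 207, 208 and 308, and 2, 2 and 1 in Ade mice 407, 408 and 409. Against the limit of 3 counts over the Con group, the pooled Areg level was at least 7.56-fold higher in the Ade group and at least 3.56-fold higher in the Ade + IMC group. Ereg had 4 reads in the Con group, 17 in the Ade group and 7 in the Ade + IMC group. It was read in 2 of 5 Con mice, in 6 of 6 Ade mice and in 4 of 6 Ade + IMC mice. With no filter on low counts, edgeR called both genes higher in the Ade group (adjusted p = 0.00249 for Areg and 0.069 for Ereg), and DESeq2 called Areg (adjusted p = 0.000773) and not Ereg (adjusted p = 0.111).

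Taking the 6 ligands that bind EGFR together, Egf made up 97.6% ± 0.591 of their summed level per kilobase in Con mice (SD, n = 5), 81.8% ± 13.9 in Ade mice and 93.4% ± 1.5 in Ade + IMC mice (SD, n = 6 each). The spread of the Ade group lay between mice 207, 208 and 308, with 64.7%, 66.9% and 77.5%, and mice 407, 408 and 409, with 95.2%, 93.5% and 92.7%. The Hbegf share was 0.866% ± 0.230 in Con, 12% ± 10.2 in Ade and 3.6% ± 1.1 in Ade + IMC mice. With no length correction the shares in Ade mice were 90.5% ± 7.66 for Egf and 6.13% ± 5.54 for Hbegf. Leaving Egf out of the sum, Hbegf took 36.6% ± 4.01, 61.5% ± 8.03 and 53.5% ± 4.62 in the same order, and Btc 27.9% ± 1.82, 10% ± 4.69 and 14.2% ± 3.21. The Con range of the Hbegf share without Egf (30.4% to 40.8%) lay below those of the Ade (52.7% to 70.8%) and Ade + IMC (46.6% to 59.1%) groups. These shares are of RNA and are given as a description.

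**Figure D3:**
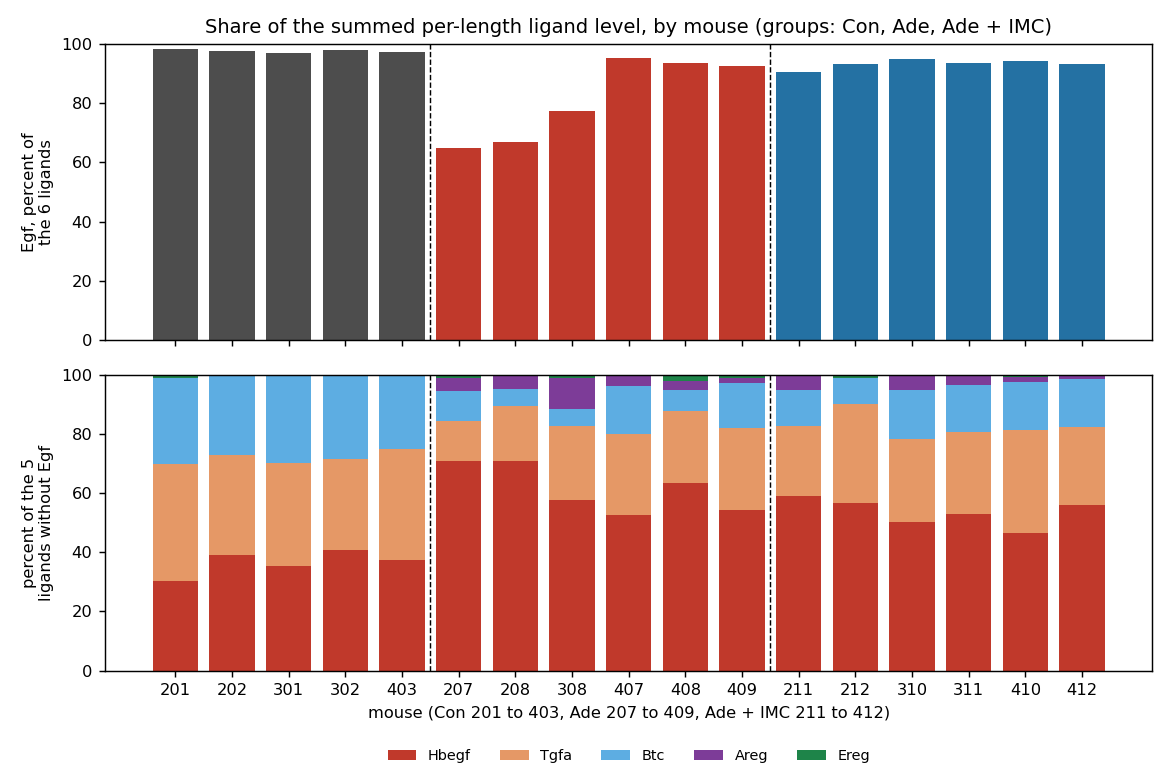
Share of each EGFR-binding ligand in the summed level per kilobase, in percent, with 1 bar per mouse. The upper panel gives Egf among 6 ligands (90.6% or more in all mice except Ade mice 207, 208 and 308) and the lower panel the 5 ligands without Egf, where Hbegf takes 30.4% to 40.8% in Con mice and 46.6% or more in adenine-fed mice.

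Nrg1, the neuregulin of the set and a ligand of ERBB3 and ERBB4 (chromosome 8, 31814551 to 32884029, minus strand), had a small rise that rested on few mice. It was 5.05, 4.77, 5.42, 9.74 and 6.79 CPM in Con mice 201, 202, 301, 302 and 403. It ran from 5.41 to 16.8 CPM in Ade mice (median 8.52) and from 3.51 to 7.19 CPM in Ade + IMC mice (median 5.77). The Con and Ade ranges overlapped, with 2 of 6 Ade mice above every Con mouse. The log2 fold change of the Ade group was 0.58 ± 0.28 (1.5-fold, adjusted p = 0.0839, edgeR). Without Ade mouse 207, which had the 16.8 CPM, it was 0.34 ± 0.23 (adjusted p = 0.212), and the call was also lost without Ade mouse 208 or 408 or without Con mouse 201, 202, 301 or 403. The ratio was 2.55-fold for digit 2, 1.12-fold for digit 3 and 1.02-fold for digit 4. In the Ade + IMC group, Nrg1 had a log2 fold change of -0.22 ± 0.23 against the Con group (adjusted p = 0.425). Of its 10351 exon bases, 482 are shared with a gene on the other strand.

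The 3 receptors fell with adenine, and Erbb3 fell most. Erbb3 (chromosome 10, 128567523 to 128589652, minus strand) was 188, 190, 168, 158 and 159 CPM in Con mice 201, 202, 301, 302 and 403, 82.4 to 131 CPM in Ade mice (median 101) and 67.3 to 123 CPM in Ade + IMC mice (median 94.9). No adenine-fed mouse reached the Con range. Its log2 fold change was -0.71 ± 0.11 in the Ade group (adjusted p = 8.09e-05) and -0.88 ± 0.12 in the Ade + IMC group (adjusted p = 6.3e-05, edgeR). Within the digits, the fall in the Ade group was 1.56-fold, 1.97-fold and 1.6-fold for digits 2, 3 and 4.

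Erbb2, the receptor without a known ligand (chromosome 11, 98412470 to 98437716, plus strand), was 123, 130, 119, 126 and 116 CPM in Con mice 201, 202, 301, 302 and 403. It ran from 75.7 to 108 CPM in Ade mice (median 102) and from 74.1 to 112 CPM in Ade + IMC mice (median 99.1), again without overlap with the Con group. It fell by 0.31 ± 0.09 on the log2 scale in the Ade group (adjusted p = 0.00839) and by 0.36 ± 0.09 in the Ade + IMC group (adjusted p = 0.00358, edgeR). The lowest values of both adenine-fed groups came from mice 308 and 311.

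Egfr, the receptor of EGF itself (chromosome 11, 16752203 to 16918158, plus strand), was 87.4, 73.5, 81.0, 84.0 and 76.0 CPM in Con mice 201, 202, 301, 302 and 403, and 47.3 to 93.5 CPM in Ade mice (median 55.6). Ade mouse 207 had the highest value of all 17 mice and the other 5 Ade mice lay below every Con mouse. The fall in the Ade group was 0.37 ± 0.15 on the log2 scale (adjusted p = 0.0509, edgeR). Within the digits of the mouse number Egfr was 1.02-fold lower for digit 2 (2 Ade mice against 2 Con mice), 1.74-fold for digit 3 (1 against 2) and 1.42-fold for digit 4 (3 against 1), so that almost none of the fall was seen in digit 2. The fall missed the threshold with upper-quartile scaling (adjusted p = 0.105), under which the median log2 fold change of all genes was 0.08 in place of 0.02, and without Con mouse 201 (0.101) or Ade mouse 308 (0.105) or 408 (0.11). In the Ade + IMC group all 6 mice lay below every Con mouse (41.7 to 65.4 CPM, median 52.3), and the log2 fold change was -0.66 ± 0.11 (adjusted p = 0.000187).

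The order of levels per kilobase changed at several places. In the Con group it ran from Egf (291 CPM per kilobase) through Erbb3 (28.7), Erbb2 (23.5), Egfr (7.1), Hbegf (2.45), Tgfa (2.37), Btc (1.89), Nrg1 (0.614) and Ereg (0.021) to Areg at 0. The ranges of neighbours in this order overlapped for Hbegf and Tgfa, Tgfa and Btc, and Ereg and Areg. In the Ade group it ran from Egf (62.8) through Erbb2 (18.7), Erbb3 (17.2), Egfr (5.41), Hbegf (5.28), Tgfa (1.79), Nrg1 (0.903), Btc (0.795) and Areg (0.392) to Ereg (0.0894). There the neighbours that stood apart were Egf and Erbb2, Erbb3 and Egfr, Hbegf and Tgfa, and Tgfa and Nrg1. The Ade + IMC group had the same order as the Ade group except that the mean of Btc (0.998) was above that of Nrg1 (0.538), and the ranges of this pair overlapped in both groups.

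Over all 14612 genes tested, 67.3% were called between the Ade and Con groups, 35.1% higher and 32.2% lower. Of the family, 8 of the 10 genes passed the filter, and 2 (Hbegf and Nrg1) were called higher and 6 lower. Between the Ade + IMC and Con groups 63.2% of 14578 genes were called, 30.9% higher and 32.3% lower. There 1 of the 8 tested genes (Hbegf) was called higher and 5 (Egf, Btc, Egfr, Erbb2 and Erbb3) lower. Both comparisons use the same 5 Con mice. With so many genes changed, a call by itself does not set these genes apart, and the sizes and ranges above carry the description. How many of all genes had ranges without overlap was not counted, so a lack of overlap does not set these genes apart either.

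**Figure D4:**
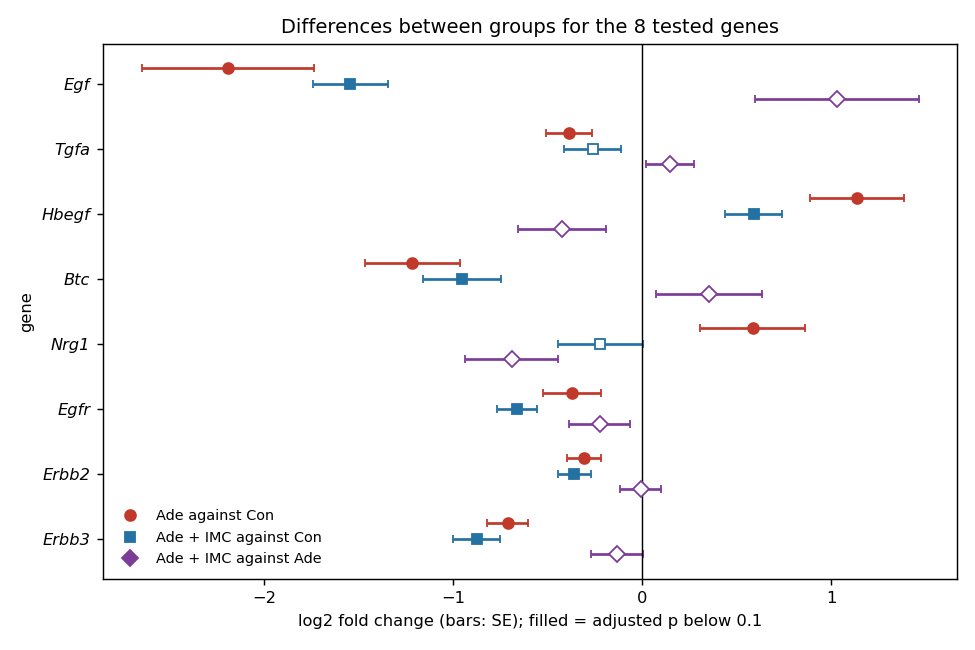
Log2 fold changes with SE for the 8 tested genes in the 3 comparisons, filled markers standing for an adjusted p below 0.1. Egf has the longest bars to the left against the Con group (-2.19 in Ade and -1.54 in Ade + IMC), Hbegf lies to the right in both, and all markers of the Ade + IMC group against the Ade group are open.

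Between the Ade + IMC and Ade groups, limma called 0 of 14696 genes (0%), with 988 genes at an unadjusted p below 0.05. For this pair the paper reports genes both higher and lower by DESeq2 at the same threshold, a gap whose cause was not tested. Egf had the largest log2 fold change of the family, 1.03 ± 0.43 (unadjusted p = 0.032, adjusted p = 0.715). Normalized counts of Egf were 5271 ± 3853 in the Ade group and 8503 ± 2012 in the Ade + IMC group (SD, n = 6 each), and 1 of 6 Ade + IMC mice lay above every Ade mouse. Nrg1 followed with -0.69 ± 0.24 (unadjusted p = 0.0137, adjusted p = 0.711), from 69.8 ± 29.4 to 41.2 ± 9.65 normalized counts. Hbegf had -0.42 ± 0.23, Btc 0.35 ± 0.28, Egfr -0.22 ± 0.16, Tgfa 0.15 ± 0.13 and Erbb3 -0.13 ± 0.14, with adjusted p of 0.751 to 0.869. For Erbb2 the value was -0.01 ± 0.11 (adjusted p = 0.994), and its interval of 2 SE to each side, from -0.22 to 0.20, bounds the difference.

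Within the digits of the mouse number these values were uneven. Within digit 2 Egf was 3.93-fold higher in Ade + IMC than in Ade mice (2 against 2) and within digit 3 it was 3.78-fold higher (2 against 1), whereas within digit 4 the ratio was 1.1 (2 against 3). Nrg1 was lower in each digit, by 2.06-fold, 1.63-fold and 1.37-fold. Hbegf was 1.87-fold and 1.44-fold lower for digits 2 and 3, and its log2 difference for digit 4 was 0.01. Whether these ratios differ between digits was not tested. With the digit as a block, limma called 133 genes (0.905% of those tested) and none of the family, with adjusted p = 0.126 for Egf and 0.164 for Nrg1. DESeq2 on the recovered reads with the same block called 591 genes (4.03%), among them Egf (log2 fold change 1.23 ± 0.35, adjusted p = 0.0302) and Nrg1 (-0.75 ± 0.24, adjusted p = 0.0628).

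The genes whose level was most like that of Egf over the 12 adenine-fed mice, after the group means were subtracted, were Fads6 (Pearson r = 0.969, Spearman rho = 0.986), Smpdl3a (r = 0.968, rho = 0.965), Sumf1 (r = 0.961, rho = 0.979), Cyp2j11 (r = 0.957, rho = 0.923) and Abat (r = 0.954, rho = 0.958), out of 14695 genes. The points share the split of the Ade mice by digit. Over the 9 mice without Ade mice 207, 208 and 308, r was 0.827, 0.918, 0.843, 0.973 and 0.936 in the same order. All 5 genes fell in the Ade group against the Con group, where 32.2% of all genes tested fell. Their log2 fold changes ran from -0.26 for Sumf1 to -2.12 for Cyp2j11 (adjusted p from 0.0244 to 1.72e-05, edgeR). Of the family, Hbegf had r = -0.71 with Egf over the 12 mice and 0.0499 over the 9. In the same order, r was 0.223 and 0.744 for Erbb2, -0.0493 and 0.623 for Erbb3, and -0.342 and 0.44 for Egfr. It was -0.00293 and 0.575 for Tgfa, 0.189 and 0.408 for Btc, and -0.51 and 0.249 for Nrg1. These are descriptions over few mice.

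The rest of the family and its pathway was followed in 5 lists, whose counts stand beside 35.1% of all genes called higher and 32.2% called lower in the Ade group, and 30.9% and 32.3% in the Ade + IMC group, each against the Con group. Of the other family members, Erbb4, the fourth receptor, had a log2 fold change of -0.38 ± 0.25 in the Ade group (adjusted p = 0.199) and Nrg4 one of -0.04 ± 0.23 (adjusted p = 0.887). Epgn (epigen, 0 to 2 reads per mouse) and Nrg2 were below the filter there, and Nrg3 was not analysed here. The list therefore had 0 of 2 tested genes called.

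Among 9 genes of ligand shedding, 6 rose and 2 fell in the Ade group, where 67.3% of all genes were called (median log2 fold change 0.52, against 0.02 over all genes). Adam17, the main protease that frees the membrane forms of several of these ligands, rose by a log2 fold change of 0.67 ± 0.09 (adjusted p = 2.17e-05), and its partner Rhbdf2, which brings it to the cell surface, by 1.1 ± 0.16. Adam12, which is able to cut heparin-binding EGF, rose 6.47-fold, from 3.81 ± 1.31 CPM to 24.1 ± 3.37 CPM, and Adam19 rose 4.67-fold. Timp3, an inhibitor of ADAM17, fell 2.83-fold, from 1501 ± 263 CPM to 523 ± 193 CPM (adjusted p = 0.000106). The other gene that fell was the protease Adam9 (log2 fold change -0.67 ± 0.13, adjusted p = 0.000626). Adam10, which frees EGF and betacellulin, had a log2 fold change of 0.09 (adjusted p = 0.593). In the Ade + IMC group the counts against the Con group were again 6 higher and 2 lower.

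Among 14 genes that restrain the receptors, 2 rose and 6 fell in the Ade group (median log2 fold change -0.10), a share of calls below the 67.3% over all genes. Errfi1, a feedback inhibitor that binds the EGFR kinase, fell 2.34-fold from 624 ± 95.4 CPM to 263 ± 87.1 CPM (adjusted p = 0.00013). Spry4 fell 1.57-fold and Spred2 1.29-fold, both being inhibitors of the Ras and MAPK pathway. Of 28 adaptors and kinases, 12 rose and 7 fell (median 0.12), together a share near the 67.3% called over all genes. Stat3 rose 2.05-fold, Nras 1.61-fold and Grb2, the adaptor that links the receptors to Ras, 1.51-fold. In the Ade + IMC group against the Con group, 2 of the restraining genes rose and 7 fell, and 13 of the adaptors and kinases rose and 7 fell.

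Of 14 genes known to respond to MAPK signalling, 11 rose and 2 fell in the Ade group (median log2 fold change 1.45), beside 35.1% of all genes higher and 32.2% lower. Egr3 rose from 0.207 ± 0.161 CPM to 1.77 ± 0.514 CPM, Fos 4.99-fold and Egr1 4.98-fold, all being immediate early transcription factors. The Con level of Egr3 (0 to 0.433 CPM) was at the limit of detection, 3 counts in the smallest Con library being 0.389 CPM. The 2 that fell were Dusp6, a phosphatase of ERK (log2 fold change -0.39 ± 0.09, adjusted p = 0.00258), and Etv5 (-0.67 ± 0.12, adjusted p = 0.000267). Many other signals move these genes too. In the Ade + IMC group, 9 of 13 tested genes rose and 2 fell against the Con group (median 0.90), beside 63.2% of all genes called.

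**Figure D5:**
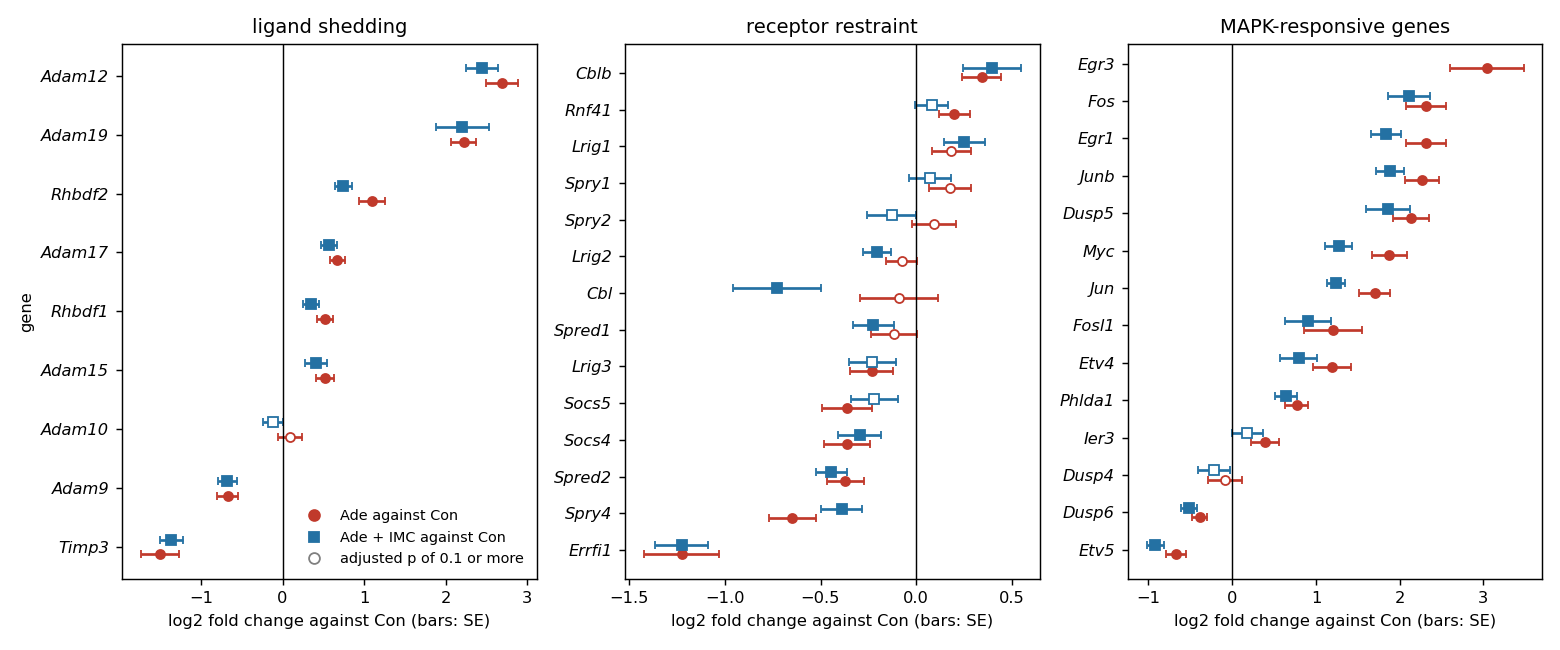
Log2 fold changes with SE against the Con group for the genes of 3 pathway lists in the Ade group (circles) and the Ade + IMC group (squares), open markers standing for an adjusted p of 0.1 or more. Adam12 and Adam19 lie farthest to the right and Timp3 farthest to the left among the shedding genes, Errfi1 farthest to the left among the restraining genes, and 11 of 14 MAPK-responsive genes lie to the right with filled circles.

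When adenine with and without IMC were set against each other, 0 genes of the 5 lists were called by limma, as were 0 of all 14696 genes, so that the count says nothing of the lists. The 3 with the smallest unadjusted p were Cbl, a ubiquitin ligase that removes EGFR (log2 fold change -0.60 ± 0.18, unadjusted p = 0.00511, adjusted p = 0.706), Spry4 (0.30 ± 0.11, unadjusted p = 0.0178, adjusted p = 0.711) and Myc (-0.53 ± 0.20, unadjusted p = 0.0189, adjusted p = 0.711). With the digit as a block, Myc passed the threshold (adjusted p = 0.0599) and Cbl (0.188) and Spry4 (0.215) did not.

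Markers of other cell types also differed between the groups, among 35.1% of all genes higher and 32.2% lower in the Ade group. There, 6 of 6 tested proximal tubule markers and 6 of 6 tested collecting duct markers fell, while 7 of 7 injured tubule, 6 of 6 fibroblast, 6 of 6 macrophage and 6 of 6 T and B cell markers rose. Of 5 markers each, 0 rose and 3 fell for endothelium, 1 rose and 0 fell for podocytes, and 3 rose and 0 fell for urothelium, and of 2 tested Schwann cell markers 1 rose. The summed proximal tubule level was 9780 to 14899 CPM in Con, 1393 to 5665 CPM in Ade and 2317 to 4695 CPM in Ade + IMC mice. The summed injured tubule level was 81.3 to 118 CPM in Con, 520 to 1619 CPM in Ade and 417 to 938 CPM in Ade + IMC mice, and was highest, at 1120 to 1619 CPM, in Ade mice 207, 208 and 308. The macrophage sums were 156 to 193, 673 to 1061 and 617 to 985 CPM in the same order, and the fibroblast sums 257 to 320, 2022 to 2530 and 1503 to 2240 CPM. No marker in these lists was at 0 in every mouse of a group, and their part in the changes of the ligands and receptors was not tested.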

How the data were processed

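Kidney RNA-seq was analysed in 17 mice (5 Con, 6 Ade and 6 Ade + IMC), whose groups were taken from the labels. Per the paper's methods, single-end reads were aligned to mm10 with STAR, whereas the submitters' processing notes list Trimmomatic 0.39, FastQC 0.11.8, Bowtie2 2.2.5, HTSeq 0.9.1 and DESeq2. The use of strand is not given in the sources used here. The authors deposited raw counts per gene for Con and Ade mice (21004 genes) and, for Ade and Ade + IMC mice, a signal, the count divided by DESeq2's size factor (21287 genes). Another table with the authors' own fold changes and p-values was used for gene names only. Dividing each normalized value above 0 by the step of 1 read gave whole reads (100% within 0.01), and for Ade mice these differed from the raw table at 0 genes held by both. Libraries of a group always differed beyond counting noise (smallest chi-square for each degree of freedom 3.96).

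The Ade and Con groups, and the Ade + IMC and Con groups (raw counts and recovered reads), were compared by edgeR 4.0.16 (quasi-likelihood, TMM, its own filter on low counts). For adenine with against adenine without IMC, limma 3.58.1 with trend was run on log2(normalized count + 1), keeping genes whose mean was at least 10. R was 4.3.3, and genes were called at an adjusted p below 0.1. Each sample was 1 mouse. Limits of 3 counts cover counting error only, and intervals of 2 SE the spread between mice. CPM of 3 counts in the smallest library was 0.389 (Con), 0.551 (Ade) and 0.524 (Ade + IMC). Exon lengths were taken from GENCODE M21 (GRCm38).

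Genes named were the 10 family genes, up to 3 called genes per pathway list with the largest change in the Ade group (for the Ade + IMC and Ade groups, the 3 of all lists with the smallest unadjusted p below 0.05), Havcr1, and the 5 genes most like Egf. Adam17, Rhbdf2, Adam10, Adam9, Dusp6, Etv5, Erbb4, Nrg4, Epgn, Nrg2, Nrg3, Slc12a1, Umod, Slc12a3 and Cldn16 were added for their roles after their values were seen. The members and lists were chosen with earlier results of these data known. Alternatives changed the tool (DESeq2 1.42.0 among them), scaling, filter, pseudocount, threshold, mice included and the digit block. Scripts were checked on simulated counts in which the changes were known.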

Additional observations from a re-analysis of the deposited data

Results flagged for a closer look

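Over 36 sets of values (the 10 genes, the Egf share and the ratio of Egf to Hbegf, in each of 3 groups), the sample farthest from the rest was examined by Dixon's criterion, by which chance marks about 1 in 20 sets. Erbb2 in Ade + IMC mouse 311 was the 1 value marked, at 74.1 CPM against 97.9 to 112 CPM in the other 5 mice of the group. The same mouse had the lowest Erbb3 (67.3 CPM), Egfr (41.7 CPM), Tgfa (9.07 CPM), Hbegf (12.9 CPM), Nrg1 (3.51 CPM) and Egf (846 CPM) of its group, and the highest summed level of T and B cell markers (372 CPM). Without this mouse, Erbb2 had a log2 fold change of 0.06 ± 0.09 between the Ade + IMC and Ade groups (adjusted p = 0.795, limma).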

How the results depend on the processing

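Of the log2 fold changes of the 8 tested genes, 490 values under the alternatives kept the direction and the side of the threshold, 15 lost the call, 4 gained it and 10 changed sign. The 15 lost calls were those of Nrg1 (10 alternatives, log2 fold change 0.34 to 0.78 over all 20) and Egfr (5 alternatives, -0.52 to -0.30) between the Ade and Con groups. Egf, Tgfa, Hbegf, Btc, Erbb2 and Erbb3 kept their calls there under all 20 alternatives, with Egf going from 4.57-fold to 8.43-fold lower with the digit block. The genes of the family called higher in the Ade group went from 2 to 1 at an adjusted p below 0.05, and ranged from 1 to 2 when 1 mouse was left out. With no filter they were 3 (Hbegf, Areg and Ereg, without Nrg1), and DESeq2 called 2, Hbegf and Areg in place of Nrg1. Between the Ade + IMC and Con groups, DESeq2 and the fit with no filter called 2 genes of the family higher in place of 1, by adding Areg, which the filter on low counts had kept out. For IMC on top of adenine, the genes called were 0 by limma and by edgeR (985 at an unadjusted p below 0.05), 37 by DESeq2 on recovered reads, and, with the digit block, 133 by limma, 104 by edgeR and 591 by DESeq2, and the cause of these gaps was not tested. Only the last called genes of the family, 2 in all, 1 higher (Egf) and 1 lower (Nrg1). There Egf ranged from 0.68 (edgeR, unadjusted p = 0.133) to 1.40 (without mice 407, 311 and 412). The values that changed sign were all near 0. Erbb2 between the Ade + IMC and Ade groups had 0.035 with the digit block in limma, 0.028 in edgeR and 0.037 in DESeq2, 0.11 without mice 407, 311 and 412, and -0.076 to 0.065 without single mice. Erbb3 had 0.015 and Nrg1 against the Con group 0.0035 without those of the 3 mice in the comparison. With no length correction, the Egf share was 98.9% in Con, 90.5% in Ade and 96.8% in Ade + IMC mice (97.6%, 81.8% and 93.4% with it) and the Hbegf share 0.376%, 6.13% and 1.60%, so that the Hbegf share of each group was lower by more than 1.5 times. Without Egf in the sum, the Hbegf share was 36.6%, 61.5% and 53.5% in Con, Ade and Ade + IMC mice. Depth limits the account of Areg and Ereg, with at most 6 reads per mouse.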
